A study of Mus musculus with 12 samples.

Results

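The genes described here are 10 enzymes of fatty acid synthesis and of its neighbouring steps, Acaca, Acacb, Fasn, Acly, Scd1, Elovl6, Me1, Acsl1, Dgat2 and Pck1. They are 10 of the 23508 gene symbols in the mRNA table, and all 10 were among the 15199 symbols that passed the filter on low counts. They were selected with their levels over age already known, so their age differences are given as levels and fitted differences with no p-value, and the count of them past the study's threshold is a description and no test. RNA came from the snap-frozen thymus of male wild-type C57BL/6 mice at 2 weeks (2W), 6 weeks (6W) and 3 months (3M) of age, with 2 biological replicates per age. No treatment, transgene or deletion is part of the design, and the groups are labelled by age alone. What else may have differed between the ages was not tested. The series follows the growth of the thymus after birth, from 2W to 6W, and its later decline, from 6W to 3M. Whether a replicate is 1 mouse or several is not given in the sources used here, so the spread between replicates may be smaller than the spread between mice.

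Fatty acid synthesis turns acetyl-CoA into palmitate in the cytosol: carbon leaves the mitochondria as citrate, acetyl-CoA is carboxylated to malonyl-CoA, and fatty acid synthase joins malonyl-CoA units with NADPH as the reducing agent. Palmitate is then elongated, desaturated, activated with coenzyme A and built into triglycerides. The pathway is active in liver, in adipose tissue and in dividing cells, and its genes are known targets of SREBP-1c and ChREBP, the factors that couple lipid synthesis to insulin and carbohydrate. The thymus consists mostly of thymocytes and epithelium, is embedded in fat, and gains fat cells as it ages.

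For 8 of the 10 genes, RefSeq promoter windows on build GRCm38.p6 were at hand, 10 windows in all, each from 250 bases before to 50 bases after a transcript start. Scd1 and Dgat2 had no entry. The motifs searched, on both strands, were the SREBP element TCACNCCAC, the E-box CACGTG, the CCAAT box CCAAT and the GC box GGGCGG. The CCAAT box was in windows of 5 of the 8 genes, Acacb, Fasn, Acly, Me1 and Acsl1, and in 37.4% of all 32851 promoter windows of this length. The GC box was in windows of 4 of the 8 genes, Acly, Me1, Acsl1 and Pck1, and in 35.7% of all windows. The SREBP element was in 1 window, of Acsl1, and in 1.24% of all windows, whereas the E-box, in 7.15% of all windows, was in none of the 10. These are matches of letters and not measured binding sites. The 250 bases before the start are printed 5′ to 3′ for 4 genes, with the SREBP element and CCAAT box in capitals: Fasn, which holds the most CCAAT matches, Acacb, whose levels did not overlap between the ages, Acsl1, which holds the SREBP element, and Acly, whose level moved least with age.
Fasn, chr11:120824548-120824797, minus strand: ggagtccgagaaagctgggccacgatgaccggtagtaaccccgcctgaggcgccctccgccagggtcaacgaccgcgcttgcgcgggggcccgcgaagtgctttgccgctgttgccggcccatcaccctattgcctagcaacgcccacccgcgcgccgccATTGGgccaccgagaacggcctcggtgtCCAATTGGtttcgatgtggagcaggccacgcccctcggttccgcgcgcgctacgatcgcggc
Acacb, chr5:114165268-114165517, plus strand: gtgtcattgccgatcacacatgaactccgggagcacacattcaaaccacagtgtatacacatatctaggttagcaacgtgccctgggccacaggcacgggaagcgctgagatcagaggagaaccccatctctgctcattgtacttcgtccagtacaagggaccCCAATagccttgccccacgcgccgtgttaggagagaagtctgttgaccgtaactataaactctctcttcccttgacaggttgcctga
Acsl1, the second of 2 windows, chr8:46490716-46490965, plus strand: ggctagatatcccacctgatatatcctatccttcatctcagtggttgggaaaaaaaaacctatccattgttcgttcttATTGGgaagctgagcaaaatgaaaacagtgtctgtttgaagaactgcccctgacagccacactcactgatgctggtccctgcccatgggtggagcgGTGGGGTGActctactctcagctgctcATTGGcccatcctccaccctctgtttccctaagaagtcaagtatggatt
Acly, chr11:100528001-100528250, minus strand: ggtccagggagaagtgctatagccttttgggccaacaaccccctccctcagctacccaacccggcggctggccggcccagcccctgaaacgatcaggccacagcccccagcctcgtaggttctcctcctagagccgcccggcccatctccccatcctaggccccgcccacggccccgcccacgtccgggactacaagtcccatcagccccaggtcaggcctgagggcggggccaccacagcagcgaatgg
In Fasn the 3 CCAAT matches begin 90, 62 and 59 bases before the start, and the last 2 overlap, as CCAAT and its reverse complement share bases. In Acsl1 the SREBP element begins 76 bases before the start and lies between CCAAT boxes at 172 and 49 bases. In Acacb the CCAAT box begins 87 bases before the start, and in Acly the single CCAAT box lies 38 bases after it, outside the printed bases, while 4 GC boxes lie upstream.

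The libraries held 16519753 to 22553481 estimated counts. Levels are given as counts per 1000000 with the library size scaled by TMM (CPM). Levels of different genes are compared as the authors' FPKM, which is corrected for transcript length. Shares of the summed counts, also given, are not corrected for it. Over all tested genes the median log2 difference was -0.0049 for 6W against 2W, 0.02 for 3M against 6W and -0.03 for 3M against 2W. One library stood apart for these genes. In 3M replicate 1 all 10 were higher than in 3M replicate 2, by 1.32 times (Acly) to 4.54 times (Me1) with a median of 2.32 times, whereas the median log2 ratio over 14917 genes was 0.02. Of the 10, 6 lay above the 95th percentile of those genes. At 2W and 6W, replicate 1 was the higher one for 2 and 3 of the 10 genes. Differences of 3M named for the 10 genes are therefore given with and without this library, and values without it are also given for other named genes that it moved widely. Without it 3M is 1 library, so calls and p-values there hold no spread between 3M replicates. All ages share 1 estimate of the spread, so each SE of 6W against 2W below also holds the 3M gap. Without 3M replicate 1 those SEs were 0.09 for Acaca, 0.13 for Acacb, 0.16 for Scd1, 0.14 for Me1 and 0.27 for Pck1.

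**Figure D1:**
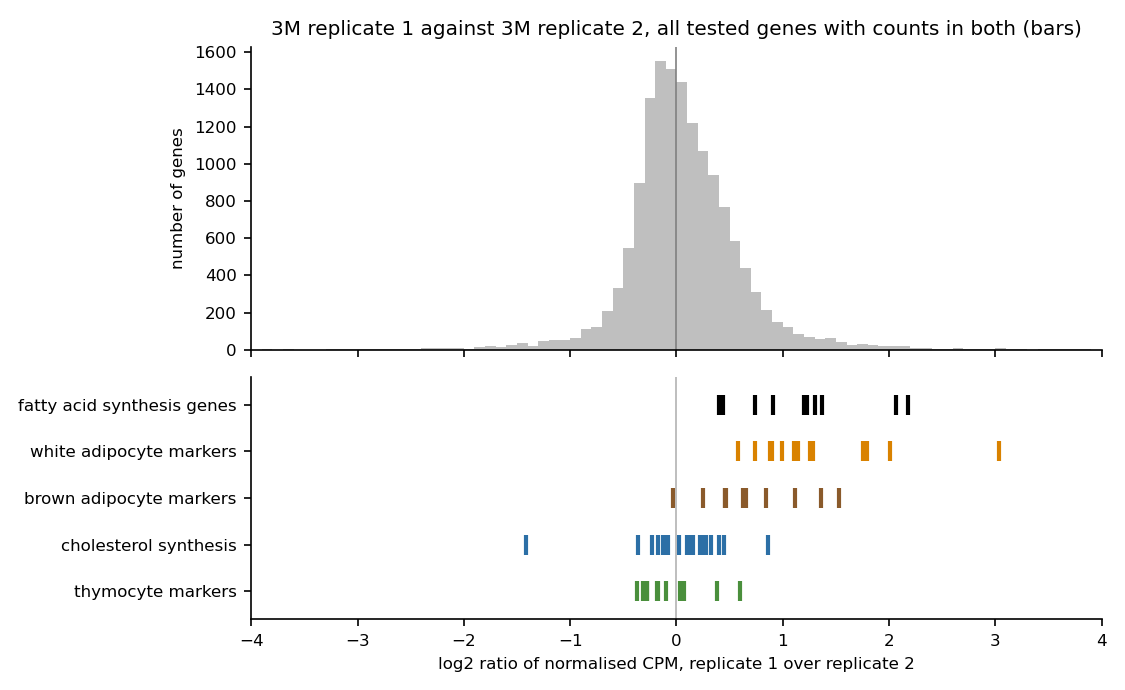
Distribution over genes of the log2 ratio of CPM in 3M replicate 1 to 3M replicate 2 (horizontal axis), with ticks below for single genes of the lists named beside them. The ticks of the 10 fatty acid synthesis genes all lie above 0, with a median log2 ratio of 1.21, and those of the 14 white adipocyte markers also all lie above 0.

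Markers of other cells moved with this library and with age. The summed FPKM of 14 white adipocyte markers was 71.1 and 90.5 at 2W, 217 and 206 at 6W, and 498 and 250 at 3M. All 14 were higher in 3M replicate 1 than in replicate 2, by a median of 2.29 times, and their sum, like that of the 10 enzymes, was highest in this library. Of the 14, only Adrb3 was at 0 in a library, 2W replicate 2. Adiponectin (Adipoq), the fat cell hormone, had 2.05 and 2.71 FPKM at 2W, 14.2 and 13.6 at 6W, and 36.5 and 17.2 at 3M. The 11 brown adipocyte markers summed to 11.5 and 38.5 FPKM at 2W, 28.3 and 41.0 at 6W, and 84.2 and 55.7 at 3M, so that 2W replicate 2 was above 6W replicate 1. The 12 thymocyte markers summed to 4501 and 4715 at 2W, 4710 and 4731 at 6W, and 3811 and 4039 at 3M. Markers of hepatocytes, the secretory cells of the liver, summed to 97.2 to 136 FPKM in 4 libraries and to 5.0 and 4.11 in 6W replicate 2 and 3M replicate 2. The 10 enzymes differed by a median of 0.945 times between the 6W replicates and of 2.32 times between the 3M replicates. Both pairs differed in the hepatocyte sum, and the part of fat or liver RNA in the levels below was not tested. In whole tissue, more cells of a type and more RNA per cell cannot be told apart.

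Together the 10 genes made up 0.116% and 0.108% of all mRNA counts at 2W, 0.184% and 0.194% at 6W, and 0.527% and 0.218% at 3M. The 6W libraries were alike and above both 2W libraries, and the 3M libraries were far apart, the lower one still above 6W. Scd1 and Fasn carried most of these counts from 6W on. Scd1 went from 3.52% and 5.02% of the counts of the 10 genes at 2W to 25.7% and 24.6% at 6W, and to 34.3% and 20.3% at 3M.

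**Figure D2:**
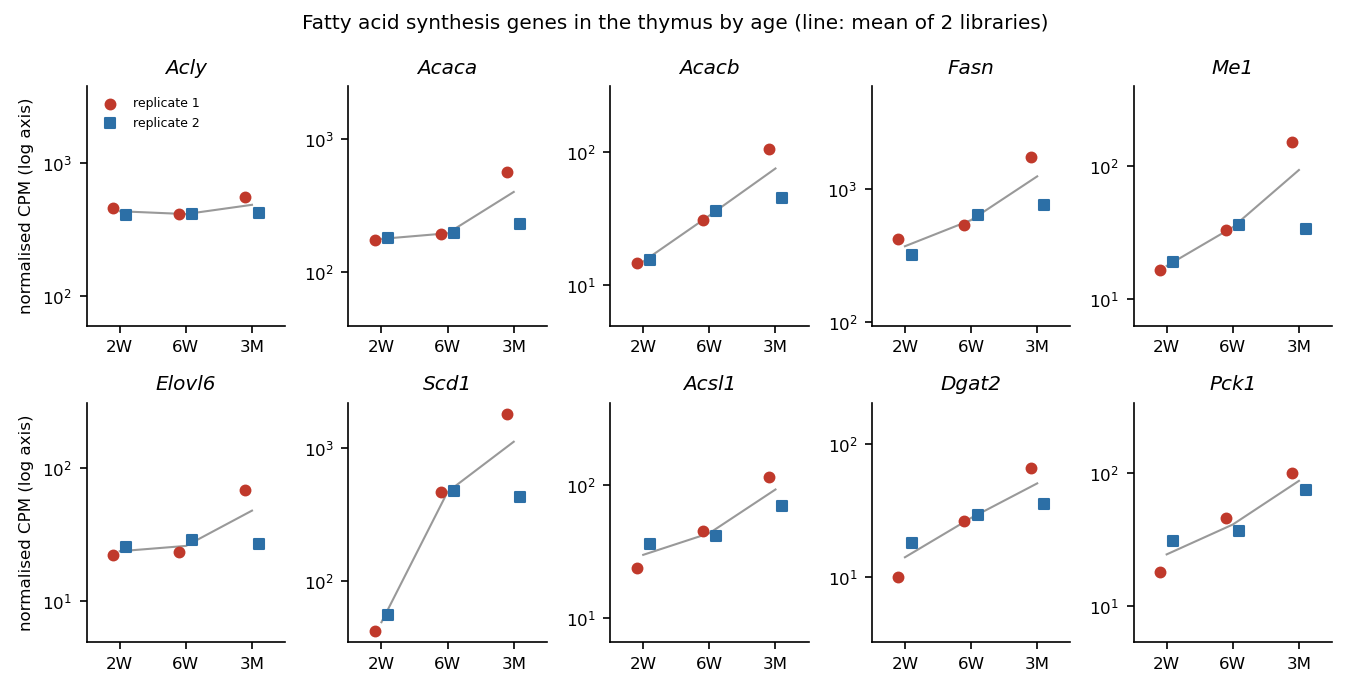
CPM of each of the 10 genes (log axis) in the 2 libraries of each age, 1 panel per gene, points for single libraries. Scd1 lies between 42.1 and 55.6 at 2W and above 429 in every later library, Acly stays between 408 and 550, and 3M replicate 1 is the highest library in all panels.

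Acly, ATP citrate lyase, splits exported citrate into acetyl-CoA and oxaloacetate and so supplies the carbon of the pathway. Its level was 456 and 408 CPM at 2W, 413 and 410 at 6W, and 550 and 417 at 3M. The ages overlapped except that both 3M libraries were above 6W, by little for replicate 2. Fitted log2 differences were -0.07 (SE 0.15) for 6W against 2W and 0.23 (SE 0.15) for 3M against 6W, and the latter was 0.03 without 3M replicate 1. It was the most stable of the 10 genes over age and the one with the highest FPKM at 2W.

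Acaca and Acacb are the acetyl-CoA carboxylases, which make malonyl-CoA. The Acaca product works in the cytosol and feeds synthesis, and that of Acacb sits at the outer mitochondrial membrane, where malonyl-CoA blocks the entry of fatty acids for oxidation. Acaca had 172 and 180 CPM at 2W, 192 and 196 at 6W, and 565 and 230 at 3M. The step from 2W to 6W was small (log2 0.14, SE 0.38), and most of the later one came from 1 library: the log2 difference of 3M against 6W was 1.03 (SE 0.38) with 3M replicate 1 and 0.25 without it. Acacb had 14.7 and 15.4 CPM at 2W, 30.8 and 36.0 at 6W, and 106 and 45.3 at 3M. Ages stood apart in order, and Acacb had the lowest FPKM of the 10 genes at 2W and 6W. At 3M it overlapped with Elovl6 in FPKM, and it was the lower one in replicate 1 but not in replicate 2. Its log2 differences were 1.15 (SE 0.38) for 6W against 2W and 1.18 (SE 0.37) for 3M against 6W, the latter 0.45 without 3M replicate 1. Without transcripts that the authors' pipeline had assembled, Acacb differed by 4.77 for 6W against 2W and 6.23 for 3M against 2W. Its annotated transcripts had only 24.6 and 0 counts at 2W.

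Fasn, fatty acid synthase, carries out all steps of chain growth up to palmitate on 1 polypeptide. It had 420 and 319 CPM at 2W, 533 and 631 at 6W, and 1732 and 753 at 3M. Ages did not overlap and followed each other upwards. For 6W against 2W the log2 difference was 0.65 (SE 0.37), and for 3M against 6W it was 1.09 (SE 0.38), or 0.38 without 3M replicate 1. Between the oldest and the youngest age it was 1.75 (SE 0.38), or 1.05 without that library.

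Scd1, stearoyl-CoA desaturase, places the first double bond into palmitate and stearate. It had 42.1 and 55.6 CPM at 2W, 465 and 471 at 6W, and 1802 and 429 at 3M. Here 2W stood far below every other library, while 3M replicate 2 fell below both 6W libraries. The log2 difference of 6W against 2W was 3.26 (SE 0.64), greater than that of any other of the 10 genes. Without transcripts that the authors' pipeline had assembled it was 2.36, below the 4.77 of Acacb. For 3M against 6W the difference of Scd1 was 1.25 (SE 0.59) with both libraries and turned to -0.11 without 3M replicate 1. Against 2W, 3M was higher by log2 4.51 (SE 0.68), or 3.16 without that library. Its paralog Scd2, with which reads could be shared, had 120 and 130 FPKM at 2W, 102 and 120 at 6W, and 127 and 111 at 3M, with a log2 difference of -0.12 for 3M against 2W (adjusted p = 0.58, edgeR's quasi-likelihood test), or -0.21 without 3M replicate 1.

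Elovl6 lengthens palmitate to stearate. It had 22.1 and 25.4 CPM at 2W, 23.4 and 28.7 at 6W, and 69.3 and 26.8 at 3M. The values of 5 of the 6 libraries lay within a narrow band, and 3M replicate 1 alone stood out. The log2 difference of 3M against 6W was 0.88 (SE 0.41), or 0.05 without that library.

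Me1, the cytosolic malic enzyme, yields NADPH from malate. It had 16.4 and 19.1 CPM at 2W, 33.1 and 36.4 at 6W, and 153 and 33.8 at 3M. The 6W libraries and 3M replicate 2 were alike, and 3M replicate 1 was 4.54 times its partner, the largest gap among the 10 genes. Against 2W, 6W was higher by log2 0.97 (SE 0.64). For 3M against 6W the log2 difference was 1.43 (SE 0.62) and turned to -0.03 without 3M replicate 1.

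Acsl1 joins long-chain fatty acids to coenzyme A. It had 23.6 and 36.1 CPM at 2W, 45.2 and 41.7 at 6W, and 116 and 69.5 at 3M. Ages did not overlap, and both 3M libraries were well above 6W: the log2 difference was 1.09 (SE 0.29), or 0.69 without 3M replicate 1. Dgat2 adds the last acyl chain of triglycerides. Its level was 10.1 and 18.2 CPM at 2W, 26.6 and 29.2 at 6W, and 66.3 and 35.4 at 3M, again with no overlap. Log2 differences were 0.98 (SE 0.37) for 6W against 2W and 0.86 (SE 0.36) for 3M against 6W, or 0.35 for the latter without 3M replicate 1.

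Pck1, the cytosolic phosphoenolpyruvate carboxykinase, supplies glycerol 3-phosphate from pyruvate in fat cells and glucose precursors in liver and kidney. It had 17.9 and 30.9 CPM at 2W, 45.6 and 36.3 at 6W, and 100.5 and 74.2 at 3M. No library of one age lay in the range of another. For 6W against 2W the log2 difference was 0.75 (SE 0.29). Of the 10 genes, Pck1 kept most of its 3M against 6W difference without 3M replicate 1, with log2 1.09 (SE 0.28) before and 0.87 after. Its 3M libraries differed by 1.35 times, whereas those of Scd1 differed by 4.20 times. At 2W all of the 10 genes except Fasn and Acly were higher in replicate 2. Without that library the log2 differences of 6W against 2W were 0.90 for Acsl1, 1.50 for Dgat2 and 1.22 for Pck1. They were 0.54, 0.98 and 0.75 with both libraries and 0.26, 0.61 and 0.40 without 2W replicate 1. For Scd1 and Me1 they were 3.50 and 1.11 without 2W replicate 2.

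**Figure D3:**
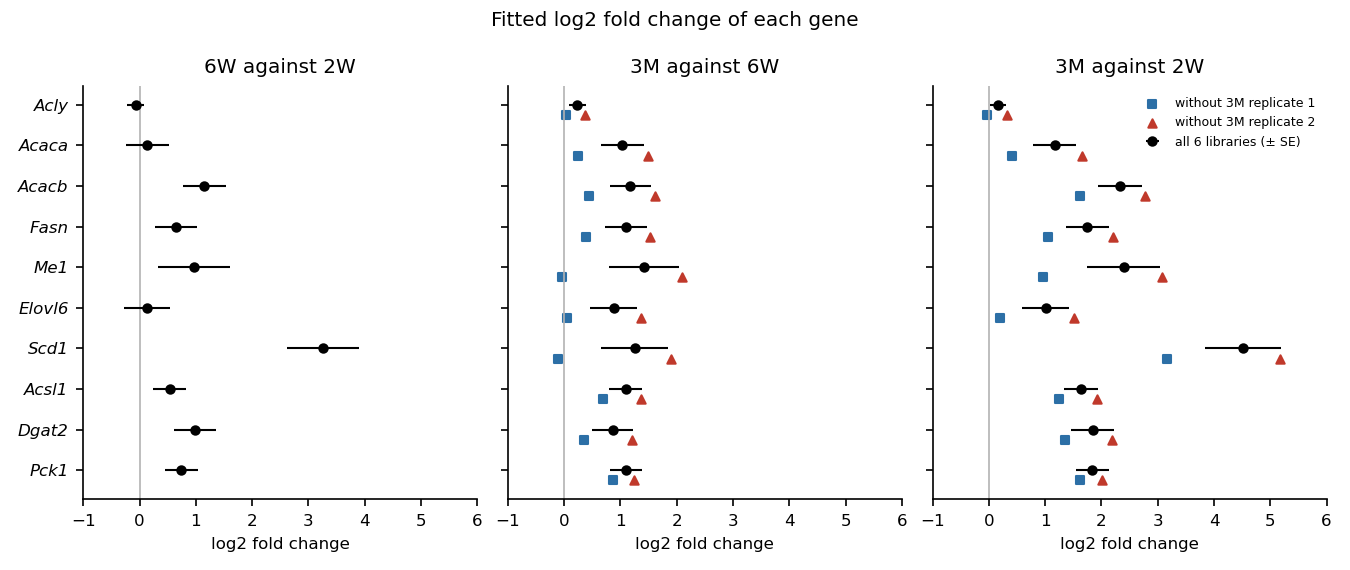
Fitted log2 fold changes of the 10 genes between ages with their standard errors, from all 6 libraries and with either 3M replicate left out. For 3M against 6W, Scd1 and Me1 go from 1.25 and 1.43 to -0.11 and -0.03 without 3M replicate 1, and Pck1 goes from 1.09 to 0.87.

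Of the 10 genes, 2 passed the threshold of the study (unadjusted p under 0.05 and a log2 difference over 1) for 6W against 2W, where 4.26% of all tested genes were called higher. For 3M against 6W, 5 passed, with 1.37% of all genes, and for 3M against 2W, 8 passed, with 7.49% of all genes. These counts follow from how the genes were chosen. Without 3M replicate 1 none passed for 3M against 6W (1.16% of all genes called higher) and 6 passed for 3M against 2W (6.54%). The median log2 difference of the 10 genes then was 0.30 for 3M against 6W, down from 1.09, and 1.15 for 3M against 2W, down from 1.79.

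Levels per length placed Acly first at 2W with 90.5 ± 8.28 FPKM (SD, n = 2), followed by Fasn with 38.0 ± 7.56 and Acaca with 23.8 ± 3.88. Below them, Pck1, Acsl1, Scd1, Dgat2 and Me1 lay between 8.19 and 5.04 FPKM, and each of these neighbours overlapped with the next. Elovl6 with 4.15 ± 0.085 and Acacb with 1.64 ± 0.050 came last. At 6W, Scd1 had reached 91.3 ± 0.078 FPKM and overlapped with Acly at 92.7 ± 2.09, with Fasn below them at 62.9 ± 6.88. At 3M the order was led by Scd1 with 215 ± 185 and Fasn with 133 ± 71.9, and only 2 neighbour pairs did not overlap, Acly above Acaca and Dgat2 above Elovl6. This lead came from 3M replicate 1, since in replicate 2 Acly with 93.4 FPKM was above Scd1 with 84.6 and Fasn with 82.4.

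The centred log2 CPM of the 10 genes, averaged, was -1.0 and -0.74 at 2W, -0.04 and 0.03 at 6W, and 1.46 and 0.28 at 3M. Acacb and Dgat2 lay closest to this mean pattern (root mean square difference 0.20 over the 6 libraries), and Acly (0.70) and Scd1 (1.17) farthest from it. Among 15189 other tested genes, whose median difference was 0.83, those closest to it were Ghr, the growth hormone receptor, and Aoc3, an amine oxidase of vessels and fat cells, with 0.05 each. Mlxipl, which encodes ChREBP, came after these with 0.14, as did Igkv17-127, an immunoglobulin segment with 3 to 20 counts, with 0.11. Mgst1, Ntrk2, Olfr1336, Hgf, Ptger3 and Serpinb5 followed with 0.15 to 0.21, and Olfr1336 had 6 to 36 counts.

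Part of these sums came from transcripts that the authors' pipeline had assembled itself, beside annotated ones. Assembled transcripts held 94.7% of the Scd1 counts, 57.7% of those of Me1, 41.1% of Acaca, 33.8% of Acacb and 25.6% of Fasn, but none of those of Acly, Elovl6, Acsl1 and Pck1. For Scd1, 1 assembled transcript had 238 and 389 counts at 2W, 8184 and 9199 at 6W, and 28752 and 8255 at 3M. The annotated ENSMUST00000041331 of Scd1 had 113 and 113 counts at 2W, 990 and 559 at 6W, and 831 and 652 at 3M. In CPM it was 49.96 and 29.23 at 3M, higher in replicate 1, while the assembled transcript was 1728 and 370 CPM. Without assembled transcripts the log2 difference of Scd1 was 2.36 for 6W against 2W and 0.14 for 3M against 6W. The same change moved Me1 to 2.23 and 0.19 in these comparisons. Within Acacb, the annotated ENSMUST00000102582 had no counts at 2W, 325 and 620 at 6W, and 1382 and 762 at 3M, while an assembled transcript had 208 and 176 counts at 2W and 0 to 97 later. Which transcript received the reads thus differed between ages, and whether the transcripts truly differ was not tested.

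**Figure D4:**
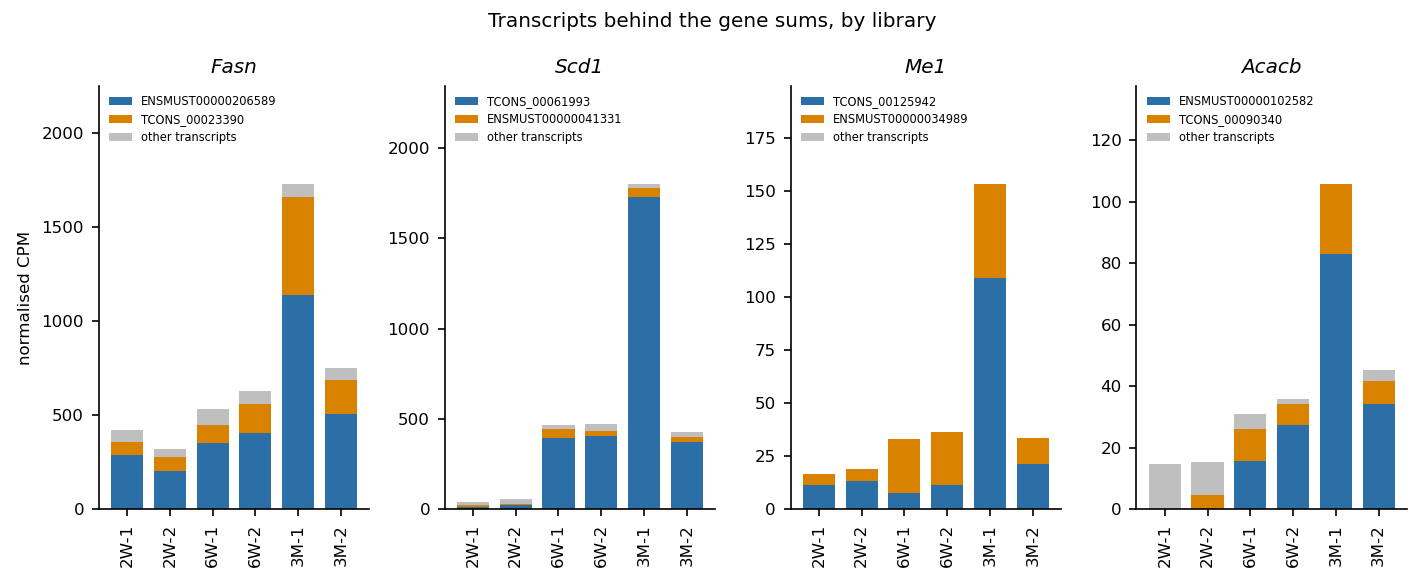
CPM of the transcripts of Fasn, Scd1, Me1 and Acacb in each of the 6 libraries, with the 2 transcripts of most counts in colour and the rest in grey (names in TCONS are transcripts assembled by the authors' pipeline). An assembled transcript makes up most of Scd1 from 6W on, and in Acacb the main transcript at 2W is not the main one at 6W and 3M.

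Beyond the 10 enzymes, 97 genes of the pathway were grouped by role, and 92 of them were tested. For 6W against 2W, 4 were called higher and none lower, with 4.26% of all tested genes called higher and 0.934% lower. For 3M against 6W, 4 were called higher (1.37% of all genes), and for 3M against 2W, 13 (7.49%). Their median log2 differences were 0.06, 0.14 and 0.14. After adjustment none passed for 6W against 2W (0.816% of all genes) or 3M against 6W (0%, with 2078 genes at an unadjusted p under 0.05), and 10 passed for 3M against 2W (9.43%). At an unadjusted p under 0.05 there were 10, 11 and 28 of the 92 tested pathway genes in these comparisons, and 2735, 2078 and 3977 of all 15199 tested genes. DESeq2 gave 5, 3 and 14 pathway genes past adjustment, with 857, 348 and 2140 of all 15199 tested genes. For 3M against 6W it gave 1895 of all genes at an unadjusted p under 0.05. The counts were small and moved with single libraries. For 6W against 2W they were 2 without 2W replicate 1, without 2W replicate 2 or without 6W replicate 2, for 3M against 6W they were 2 without 6W replicate 1 and 8 without 3M replicate 2, and for 3M against 2W they were 8 without 2W replicate 1. Without 3M replicate 1, the calls for 3M against 2W were 9 higher and 2 lower. The adjusted calls over all genes for 3M against 2W went from 1433 to 5 without 2W replicate 1 and to 5 without 2W replicate 2, to 273 and 297 without 6W replicates 1 and 2, and to 1326 and 1031 without 3M replicates 1 and 2. The 10 pathway genes past adjustment became 0 without either 2W replicate, 1 without either 6W replicate, 8 and 7 without 3M replicates 1 and 2, 2 in a fit of only those ages and 1 with a replicate block.

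In carbon supply, 9 genes beside Acly, 1 was called. Slc25a1, the mitochondrial citrate carrier, had 9.21 and 8.11 FPKM at 2W, 11.6 and 13.6 at 6W, and 24.8 and 12.6 at 3M. Its log2 difference of 1.05 for 3M against 2W (SE 0.33) passed the threshold with an adjusted p of 0.11, but was 0.48 and not called without 3M replicate 1, which left no called gene in carbon supply. Acss2, which makes acetyl-CoA from acetate, had a log2 difference of -0.19 (adjusted p = 0.67), or -0.57 without that library (adjusted p = 0.094). No gene was called among 8 of NADPH supply, 4 tested of mitochondrial fatty acid synthesis, 6 tested of desaturation and 8 tested acyl-CoA synthetases, though Slc27a1 of the last list, named after its values were seen, passed adjustment for 3M against 2W with 0.83 (adjusted p = 0.027, or 0.057 without 3M replicate 1). Without that library, Slc27a2 of the same list was called lower for 3M against 2W, with -1.01, and Hsd17b8 of the mitochondrial list, with counts in 3M replicate 2 alone (27), was called higher for both comparisons of 3M. Both were named after their values were seen. In elongation, Elovl3 was the 1 called of 11 genes. Elovl3, an elongase of skin and brown fat, had 5, 4, 4 and 2 counts in the 2W and 6W libraries and 35 and 48 at 3M, a log2 difference of 3.87 against 6W (adjusted p = 0.24) and 2.90 against 2W (adjusted p = 0.029, or 0.070 without 3M replicate 1). Its 3M libraries were alike, with 2.10 and 2.15 CPM, unlike those of most of the 10 enzymes. Elovl5, which extends polyunsaturated chains, differed by 0.46 for 3M against 2W (adjusted p = 0.056).

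Of the 11 tested genes of triglyceride assembly, Agpat2 was called for both comparisons of 3M. Agpat2, which adds the second acyl chain, had 35 and 49 counts at 2W, 59 and 85 at 6W, and 399 and 177 at 3M, with log2 differences of 2.26 against 6W (adjusted p = 0.26) and 2.61 against 2W (adjusted p = 0.038). Without 3M replicate 1 these were 1.27 and 1.63. Gpd1, which makes glycerol 3-phosphate and is also on the white adipocyte list, was higher at 3M than at 2W by log2 2.57 (adjusted p = 0.063), or 1.83 without 3M replicate 1. Gpam, the first acyltransferase, differed by 0.33 (adjusted p = 0.29), or 0.15 without that library. Of the 8 genes around Pck1, 3 were called for 3M against 2W, all higher, and without 3M replicate 1 there were 2 higher and 1 lower, Fbp1, a liver and kidney enzyme of glucose synthesis named after its values were seen, with 54 counts in 3M replicate 1 and 4 in replicate 2. Pcx, pyruvate carboxylase, had 172 and 211 counts at 2W, 621 and 664 at 6W, and 1554 and 729 at 3M. Its log2 difference for 3M against 2W was 2.40 (adjusted p = 0.033), or 1.48 without 3M replicate 1. Pck2, the mitochondrial partner of Pck1, was higher by 1.17 (adjusted p = 0.047), or 1.29 without that library. Nearly the whole step of Pck2 came before 6W (1.13, adjusted p = 0.11).

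**Figure D5:**
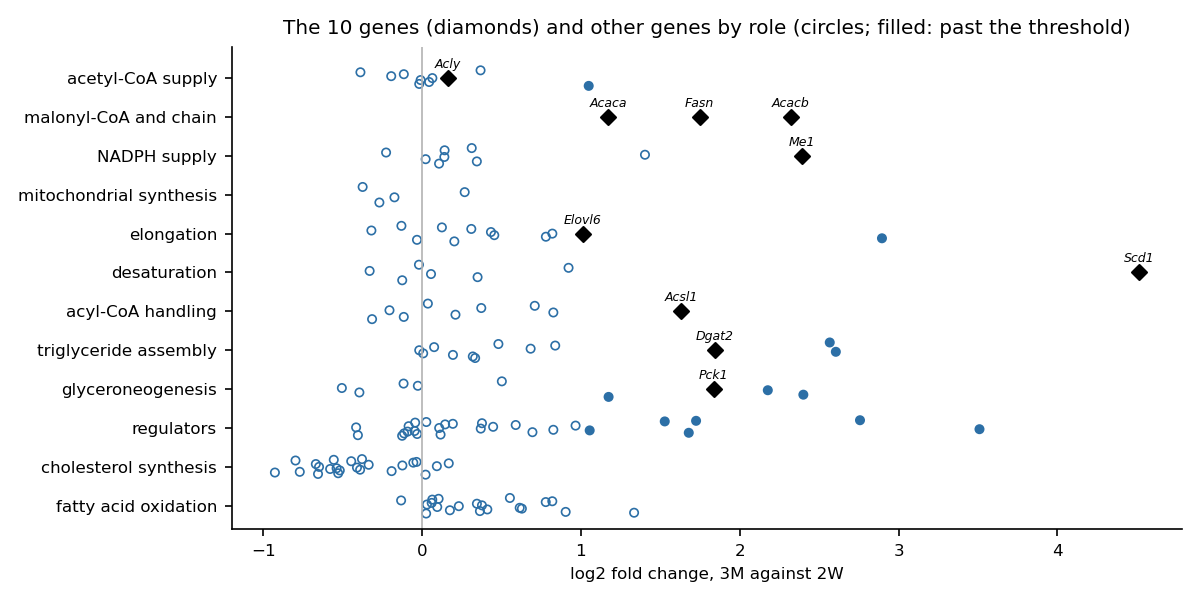
Log2 fold change of 3M against 2W for each gene by role, with diamonds for the 10 genes and circles for the other genes of the pathway and for cholesterol synthesis and fatty acid oxidation. Circles are filled where past the threshold of unadjusted p under 0.05 and a log2 change over 1, whereas all diamonds are solid whatever their p. Scd1 at 4.51 lies above every other diamond, and the cholesterol synthesis genes lie mostly below 0, with a median of -0.45.

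Of 27 regulators, 2 were called for 6W against 2W, 2 for 3M against 6W and 6 for 3M against 2W, all higher, and without 3M replicate 1 these last 2 counts were 0 and 3. Srebf1, which encodes SREBP-1, had 24.5 and 21.9 FPKM at 2W, 22.1 and 24.1 at 6W, and 21.8 and 23.3 at 3M, with a log2 difference of -0.13 for 3M against 2W (adjusted p = 0.56), or -0.071 without 3M replicate 1. Its ages overlapped, and forms 1a and 1c of this regulator were not told apart by the gene sum. Thrsp (Spot 14), a small protein of lipogenic tissues, had 2.29 and 4.97 FPKM at 2W, 13.0 and 17.6 at 6W, and 65.8 and 20.8 at 3M. It was higher by log2 1.99 for 6W against 2W (adjusted p = 0.20) and by 3.51 for 3M against 2W (adjusted p = 0.029), or by 2.44 without 3M replicate 1. Mlxipl, at 0.20 to 1.27 FPKM, was higher at 3M than at 2W by 1.68 (adjusted p = 0.091), or 1.04 and not called without that library. Nr1h3, the liver X receptor alpha, was higher by 1.06 (adjusted p = 0.026) and Cebpa, a factor of fat and myeloid cells, by 1.73 (adjusted p = 0.0083). Without 3M replicate 1 the log2 difference of Cebpa was 1.74. Ppara, a receptor that drives oxidation genes, was called for 3M against 6W with 1.54 (adjusted p = 0.31) and Thrsp with 1.52 (adjusted p = 0.34), and without 3M replicate 1 neither was called, with 1.02 and 0.44. Pparg, the fat cell receptor, differed by 0.83 for 3M against 2W (adjusted p = 0.15), or 0.44 without that library. Insig1, which holds SREBP back in the endoplasmic reticulum, differed by -0.03 (adjusted p = 0.96) with both 3M libraries and by -0.54 (adjusted p = 0.10) without 3M replicate 1.

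Other parts of lipid metabolism were compared by the same counts. Of 23 genes of cholesterol synthesis, which SREBP-2 controls, 2 were higher and 21 lower in the fit for 6W against 2W with a median log2 difference of -0.46, and 1 was called, Idi1, an isomerase, with -1.04 (adjusted p = 0.16). For 3M against 2W the median was -0.45 with none called, while Mvk and Fdft1, enzymes named after their values were seen, passed adjustment with -0.93 and -0.58, but not without 3M replicate 1 (adjusted p = 0.058 and 0.0501). These genes did not follow the 10 enzymes between 2W and 6W, and their median 3M replicate ratio was 1.09 times. None of 20 genes of fatty acid oxidation was called in any comparison, with medians of 0.10, 0.21 and 0.36. Of 14 tested genes of lipolysis and the lipid droplet, 3, 3 and 8 were called higher in the comparisons of 6W with 2W, 3M with 6W and 3M with 2W, and 0 and 4 in the last 2 without 3M replicate 1. Cidec, a droplet protein of fat cells, was higher at 6W than at 2W by log2 2.40 (adjusted p = 0.039, in a comparison where no gene passed adjustment without any one of the 2W and 6W libraries), and Plin4, a coat protein of the droplet, by 1.93 (adjusted p = 0.051). For 3M against 6W, Plin1, which coats the droplet of fat cells, was higher by 1.37 and Plin4 by 1.09 (adjusted p = 0.26 for both), and neither was called without 3M replicate 1, with 0.87 and 0.74.

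The white adipocyte markers were called higher in 7 of 14 for 6W against 2W, in 4 for 3M against 6W and in 14 for 3M against 2W, with medians of 1.51, 0.97 and 2.90. Without 3M replicate 1, none was called for 3M against 6W and 9 for 3M against 2W. Adipoq was higher at 3M than at 2W by log2 3.46 (adjusted p = 0.011), or 2.81 without that library. The ratio of the summed FPKM of the 10 enzymes to that of the white adipocyte markers was 2.71 and 2.10 at 2W, 1.50 and 1.60 at 6W, and 1.80 and 1.49 at 3M. It was thus highest at 2W, where Acly, which changed little with age, held 96.4 and 84.6 of the 193 and 190 FPKM of the 10 enzymes. The ratio without Acly is not given here. The 3M replicates were closer to each other in the ratio than in either sum, and the part of fat cells in this was not tested. Single genes differed in their ratio to Adipoq. Scd1 to Adipoq was 2.86 and 3.06 at 2W, 6.42 and 6.74 at 6W, and 9.47 and 4.93 at 3M, while Fasn to Adipoq was 21.2 and 12.1 at 2W and 4.08 to 5.04 later. Among the brown adipocyte markers, 1, 1 and 6 of 11 were called higher in the 3 comparisons, and without 3M replicate 1 there were 2 higher and 1 lower for 3M against 2W. Ucp1, the uncoupling protein that defines brown fat, had 2.41 and 18.8 FPKM at 2W, 8.86 and 16.1 at 6W, and 37.5 and 28.1 at 3M. The 2W replicates differed widely in Ucp1, and the part of brown fat in the levels of the 10 enzymes was not tested. No thymocyte marker of 12 was called, since none differed by a log2 of over 1, with medians of -0.11, -0.28 and -0.38. For 3M against 2W all 12 were lower in the fit, and 5 passed adjustment, where 9.43% of all genes did. Among them, named after their values were seen, were Cd4, Cd8a, Rag1 and Ptcra, with log2 differences of -0.53, -0.52, -0.43 and -0.85. Cd3d was higher by 0.017 without 3M replicate 1, and of these 4 Cd8a alone then passed adjustment.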

How the data were processed

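Thymus RNA of 3 ages (2 libraries each) was depleted of ribosomal RNA and sequenced strand-specifically. For mRNAs, the authors deposited estimated counts and FPKM per transcript, and for circRNAs junction counts and RPM. The submitters' processing notes name Bowtie 0.12.2 and mm8. The program behind the mRNA table is not given in the sources used here. The lncRNA and miRNA tables were not used here.

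Estimated counts were summed by exact gene symbol and rounded. Transcripts without a symbol, 0.700% to 1.20% of the counts per library, were left out. All 6 libraries entered 1 fit with age in R 4.3.3 with edgeR 4.0.16 (filterByExpr, TMM, quasi-likelihood F test, Benjamini-Hochberg adjustment over 15199 genes). The fit was tested on simulated data. Tables were handled in Python 3.11.15. Genes were called at an unadjusted p under 0.05 and an absolute log2 difference over 1, as in the study. DESeq2 1.42.0, total-count scaling, no filter, FPKM, annotated transcripts alone, the transcript with the most counts, joined letter case, only the ages compared, a replicate block and leaving out each library were alternatives. The depth of 16519753 to 22553481 estimated counts per library limits the precision of genes with few counts, and no counting interval is given for estimated counts.

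The 10 genes and all gene lists were chosen with earlier results of these data known. Named were the 10 genes, per list and comparison the 2 called genes of each direction with the smallest p, 10 regulators and enzymes in any case, all adipocyte markers or the 3 most abundant of other marker lists, and the 10 genes closest to the mean pattern.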

Additional observations from a re-analysis of the deposited data

How the results depend on the processing

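Over all genes, 789, 339 and 1398 were called for 6W against 2W, 3M against 6W and 3M against 2W, and 4, 4 and 13 of the tested pathway genes. These counts stayed within 1.5 times under DESeq2, total-count scaling, joined letter case, annotated transcripts alone and a fit of only the ages compared, and under no filter except for the pathway genes in 3M against 6W, which were 7. With 1 library left out, the pathway counts ranged from 2 to 5, from 2 to 8 and from 8 to 15, and all calls from 612 to 1005, from 239 to 710 and from 1293 to 1512. Adjusted calls were less stable: 124 for 6W against 2W became 243 with total counts, 298 with no filter, 257 with joined case, 430 with only those ages, 4 with annotated transcripts, 857 with DESeq2, 0 without any one of the 4 libraries of 2W and 6W, and 407 and 381 without 3M replicates 1 and 2, the 0 for 3M against 6W became 348 with DESeq2, and the 1433 for 3M against 2W became 398 with only those ages and 922 with annotated transcripts. All ages share 1 estimate of the spread, so leaving out a 3M library also changes the tests of 6W against 2W. What moved the other counts was not tested. Without 3M replicate 1 or 2, the share of higher calls in 3M against 6W went from 61.4% to 47.8% or 47.0%.

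The differences between replicates 1 and 2 correlated over genes by -0.08 between 2W and 6W, -0.17 between 2W and 3M and 0.28 between 6W and 3M. Whether replicate numbers mark pairs cannot be told from these values, and the main fit used no pairing. With a replicate block, 751, 303 and 1350 genes were called, 0, 0 and 411 of all genes passed adjustment, and 4, 3 and 13 pathway genes were called.

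Of the fitted differences of the 10 genes, 248 values under other settings stayed within the spread between replicates and 20 moved further. Among the latter, the sign changed for Acaca (-0.11) and Me1 (-0.39) in 6W against 2W and Acly (-0.094) in 3M against 2W with the transcript of most counts, and for Acly (0.035) in 6W against 2W with FPKM. With 1 library left out, 158 stayed within that spread, 20 moved further, and 2 with a log2 difference over 1 changed sign, Scd1 to -0.11 and Me1 to -0.031 for 3M against 6W without 3M replicate 1. Of the 158, 3 small differences also changed sign: Acly to -0.027 for 3M against 2W without 3M replicate 1 and to 0.0032 for 6W against 2W without 2W replicate 1, and Elovl6 to -0.020 for 6W against 2W without 6W replicate 2. With 1 library left out these differences for 3M against 6W thus ranged from -0.11 to 1.89 for Scd1 and from -0.031 to 2.09 for Me1. Annotated transcripts alone gave Acaca -0.11 for 6W against 2W and Acacb 4.77. Depth limits genes such as Elovl3 and Mlxipl, with 2 to 48 and 12 to 62 counts per library.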

Other observations

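Among the markers of fat cells that were not described above, Retn (resistin) had 0.64 and 0.50 FPKM at 2W, 4.79 and 2.99 at 6W, and 18.5 and 5.51 at 3M. In the same order of ages, Lep (leptin) had 0.10 and 0.07, 0.34 and 0.61, and 1.17 and 0.31. Cfd, an adipokine, had 7.02 and 4.08 FPKM at 2W and 119 and 62.1 at 3M, Fabp4 went from 24.2 and 23.9 to 70.4 and 43.8 over the same ages, and Cyp2e1 from 11.5 and 13.2 to 66.5 and 28.6. All 5 were higher in 3M replicate 1, as were Cd36, Lpl, Adrb3, Slc2a4, Gpd1, Plin1, Cidec and Pnpla3, whose log2 differences of 3M against 2W lay between 1.06 (Cd36) and 4.48 (Adrb3). Without 3M replicate 1 the log2 differences of 3M against 2W were 0.79 for Fabp4, 0.43 for Cd36, 0.75 for Lpl, 2.35 for Adrb3 and 1.69 for Pnpla3. They were 3.19 for Retn, 1.73 for Lep, 3.41 for Cfd and 1.14 for Cyp2e1. Of the brown fat markers, Cidea, Dio2, Elovl3, Cox8b, Ppargc1a and Kcnk3 were called higher at 3M than at 2W, with log2 differences of 1.05 (Dio2) to 2.90 (Elovl3), but without 3M replicate 1 Cidea (1.42), Dio2 (0.59), Ppargc1a (0.92) and Kcnk3 (1.22) were not. Ucp1, Cox7a1, Prdm16, Ebf2 and Slc27a2 were not called, with values of 1.56, 0.51, -0.20, 0.58 and -0.20. Without that library these were 1.32, 0.40, -0.42, 0.25 and -1.01, and Slc27a2 was called lower.

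Markers of other cells moved in other ways. Of 8 macrophage markers, 4 were called higher for 6W against 2W, 0 for 3M against 6W and 6 for 3M against 2W, and C1qb, C1qa and C1qc, the complement C1q chains, were higher at 3M than at 2W by log2 1.21, 1.19 and 1.05. All but 1 of these 8 were lower in 3M replicate 1 than in replicate 2, opposite to the 10 enzymes. Of 8 B cell markers, 2, 0 and 1 were called higher, and Ighm differed by 0.83, Cd79b by -0.21 and Cd79a by 0.38 for 3M against 2W, the last 2 by -0.012 and 0.58 without 3M replicate 1. None of 11 thymic epithelial markers was called in any comparison. Prss16, Cxcl12 and Ly75 passed adjustment for 3M against 2W, where 9.43% of all genes did. Without 3M replicate 1 these 3 differed by 0.53, 0.63 and 0.65. With both 3M libraries Prss16, Ccl25 and Krt8 differed by 0.45, -0.03 and -0.17. Krt5, named after its values were seen, was called higher without 3M replicate 1, with 1.26, and Krt8 differed by 0.074. Among fibroblast markers, Dcn was higher by 1.44 and Col3a1 lower by 1.23 on the log2 scale, while Col1a2 differed by -0.40. Thymocyte genes Rag1, Dntt and Lck differed by -0.43, -0.02 and -0.16, the last by -0.048 without that library. Alb, Apoa1 and Apoa2 of the liver differed by -0.64, -0.61 and -0.68 with both 3M libraries, values that rest on 3M replicate 1. Without it, Alb and Apoa1 differed by -6.12 and -3.13, Apoa2 was at 0 in the remaining 3M library, and 4 of the 7 tested hepatocyte markers were called lower, with Alb at 66.6 and 58.8 FPKM at 2W, 57.6 and 0.39 at 6W, and 82.5 and 0.95 at 3M. Of the muscle markers, 3 of 8 were tested, and Mylpf differed by -0.86 and Pvalb by 1.27.

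Of 6300 circRNAs in the junction table, 4 were assigned to 3 of the 10 genes, each with 3 counts or fewer over all libraries. One antisense to Fasn had 2 and 1 counts at 3M, 1 antisense to Scd1 had 3 in 3M replicate 1, 1 single-exon circRNA of Scd1 had 2 in 6W replicate 1, and 1 antisense to Acacb had 2 in 3M replicate 2. At these counts no difference between ages was detectable.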
